A study of Mus musculus with 6 samples.

Results

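The Hedgehog pathway genes examined were the ligands Dhh, Ihh and Shh, the receptor Ptch1, the signal transducer Smo, the transcription factors Gli1, Gli2 and Gli3, and the ligand-binding inhibitor Hhip. These 9 genes were chosen by name from 35976 gene names, and their 28 transcripts are among the 114412 transcripts counted. RNA was sequenced from C57Bl6j mouse ovaries collected at E15.5 (E, embryonic day), in 3 control pools and 3 pools from dams given panobinostat (PB), an inhibitor of histone deacetylases. The sample annotation gives PB at 5 mg/kg per day from E6.5 to E15.5, the methods of the study describe dosing on alternate days and DMSO in water as the vehicle, and a treatment text naming PB stands on all 6 samples, so groups were taken from the treatment field and the sample names. The number of ovaries per pool is given as 4 in the extraction notes and as 6 to 8 in the design notes, and the RNA-seq methods state at least 8. No mutation or transgene is named. Whether the 3 pools of a group came from separate litters is not stated for these libraries, so p-values measure the spread between pools only.

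Hedgehog ligands are secreted, lipid-modified proteins that bind Patched 1 (PTCH1). Without ligand, PTCH1 keeps Smoothened (SMO) inactive and the GLI proteins are processed into repressors, mainly from GLI3, whereas ligand binding lets SMO move into the primary cilium and activator forms of GLI2 and GLI3 switch on target genes, of which Gli1, Ptch1 and Hhip are used as readouts of the pathway. In the mouse ovary, DHH and IHH made by granulosa cells act on the neighbouring interstitial cells that give rise to theca cells, and in the fetal testis DHH from Sertoli cells acts on fetal Leydig cell precursors.

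Gli3 and Ptch1 had their counts divided among several start sites, Smo was the most abundant of the 9 and Ihh the least. The bases just upstream of 1 start site of each are therefore shown, 5′ to 3′ on the strand of the gene, from RefSeq on GRCm38.p6, the assembly that mm10 represents. Windows of 250 bases before to 50 bases after the start were available for 7 of the 9 genes (Dhh, Ihh, Ptch1, Smo, Gli2, Gli3 and Hhip). Capitals mark GGGCGG, the core of the GC box, on either strand. The Gli3 stretch (chr13:15463473-15463722, plus strand) ends at the base before the start of NM_008130.2 and lies between the 2 alternative first exons of the gene. The Ptch1 stretch (chr13:63565818-63565985, minus strand) ends before the start of XM_006517159.3. The Smo stretch (chr6:29735247-29735496, plus strand) ends before NM_176996.4, and the Ihh stretch (chr1:74951673-74951922, minus strand) before NM_010544.3.
Gli3: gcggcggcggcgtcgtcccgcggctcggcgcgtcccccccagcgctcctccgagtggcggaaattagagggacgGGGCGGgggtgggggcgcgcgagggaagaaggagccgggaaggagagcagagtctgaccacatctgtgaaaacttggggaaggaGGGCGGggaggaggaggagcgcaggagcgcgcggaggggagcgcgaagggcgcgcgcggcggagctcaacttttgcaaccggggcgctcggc
Ptch1: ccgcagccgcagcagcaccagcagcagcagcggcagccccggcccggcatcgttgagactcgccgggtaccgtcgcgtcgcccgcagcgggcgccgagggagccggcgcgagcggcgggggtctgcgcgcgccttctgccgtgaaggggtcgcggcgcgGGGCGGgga
Smo: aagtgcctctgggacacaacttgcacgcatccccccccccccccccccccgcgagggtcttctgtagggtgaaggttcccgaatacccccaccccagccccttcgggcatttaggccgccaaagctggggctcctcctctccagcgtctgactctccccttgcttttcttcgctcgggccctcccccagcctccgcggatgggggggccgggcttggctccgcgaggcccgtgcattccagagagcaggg
Ihh: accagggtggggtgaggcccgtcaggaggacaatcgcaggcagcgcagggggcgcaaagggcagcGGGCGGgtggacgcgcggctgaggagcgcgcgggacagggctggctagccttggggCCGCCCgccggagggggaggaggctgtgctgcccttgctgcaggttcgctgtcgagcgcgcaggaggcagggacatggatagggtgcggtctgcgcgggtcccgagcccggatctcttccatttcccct
GGGCGG occurred in 6 of the 7 windows, all but that of Smo, and in 35.7% of the 32851 windows of this length in the table. The Dhh window held 4 matches, the most of the 7. The window of Ptch1 had 47 CpG dinucleotides, that of Gli3 39 and those of Ihh and Hhip 30 each, against a median of 7 over all windows, and the lowest of the 7 were Smo with 17 and Dhh with 12. The GLI recognition sequence GACCACCCA, searched on both strands, was in 0 of the 7 windows and in 0.253% of all windows, which says only that these letters are not in these windows.

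The libraries held 97165644 to 125985399 counts per pool. Transcript counts were summed per gene name, and 19437 genes passed the filter on low counts, all 9 Hedgehog genes among them. With edgeR's quasi-likelihood test, 3 of the 19437 genes (0.0154%) passed the thresholds of a 2-fold change and a Benjamini-Hochberg FDR of 0.05, and 868 (4.47%) had an unadjusted p-value under 0.05. The pregranulosa markers Foxl2, Fst, Wnt4, Rspo1, Kitl, Lgr5, Irx3 and Bmp2 summed to 551 to 626 TPM in control and 602 to 690 TPM in PB (TPM, transcript levels corrected for length and depth), and those of germ cells to 357 to 523 TPM and 325 to 642 TPM, so both main cell types of a fetal ovary were present. Among the markers of tissues that could have been dissected with it, the 4 of the adrenal cortex summed to 1.92 to 2.44 TPM in control and 2.01 to 2.89 TPM in PB, from Mc2r and Akr1b7, while Cyp11b1 and Cyp21a1 were under 0.1 TPM in every pool. Epithelial markers of the mesonephros (Pax2, Pax8, Cdh16, Lhx1 and Gata3) summed to 20.0 TPM in control 3 and to 10.4 to 14.1 TPM in the other 5 pools. In bulk RNA, fewer cells of a type and less RNA per cell cannot be told apart, and this holds for every value below.

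The 9 genes spanned a wide range of levels when corrected for transcript length in TPM, the only scale used here to compare genes with each other. Smo was highest with a mean of 78.9 TPM over the 6 pools (71.6 to 83.4), followed by Gli3 with 13.9 TPM (11.9 to 15.7), Ptch1 with 9.89 TPM (8.77 to 12.0), Gli2 with 7.40 TPM (6.60 to 7.72) and Gli1 with 2.00 TPM (1.29 to 3.45). Dhh averaged 0.419 TPM (0.285 to 0.538), Hhip 0.282 TPM (0.170 to 0.471), Shh 0.252 TPM (0.124 to 0.444) and Ihh 0.122 TPM (0.0715 to 0.188). The signal transducer and the 2 GLI factors that receive the signal were thus measured far above the ligands, and Smo stood at the 93rd percentile of tested genes while Ihh stood at the 6.7th. The ranges of Gli3 and Ptch1 overlapped, as did those of the neighbours Dhh and Hhip, Hhip and Shh, and Shh and Ihh, so the order within these pairs was not resolved. The range of Smo lay above that of Gli3, that of Ptch1 above Gli2, that of Gli2 above Gli1 and that of Gli1 above Dhh. TPM were higher in PB over all tested genes, by a median factor of 1.08 (0.11 on the log2 scale), whereas the median difference in CPM (counts scaled to the normalized library size, without length) was 0.00 on the log2 scale, so fold changes were taken from CPM. The TPM sums of the marker lists carry this shift. On the CPM scale the median log2 fold change was -0.0057 for the pregranulosa, -0.036 for the germ cell, 0.033 for the interstitial and 0.099 for the Sertoli markers.

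**Figure D1:**
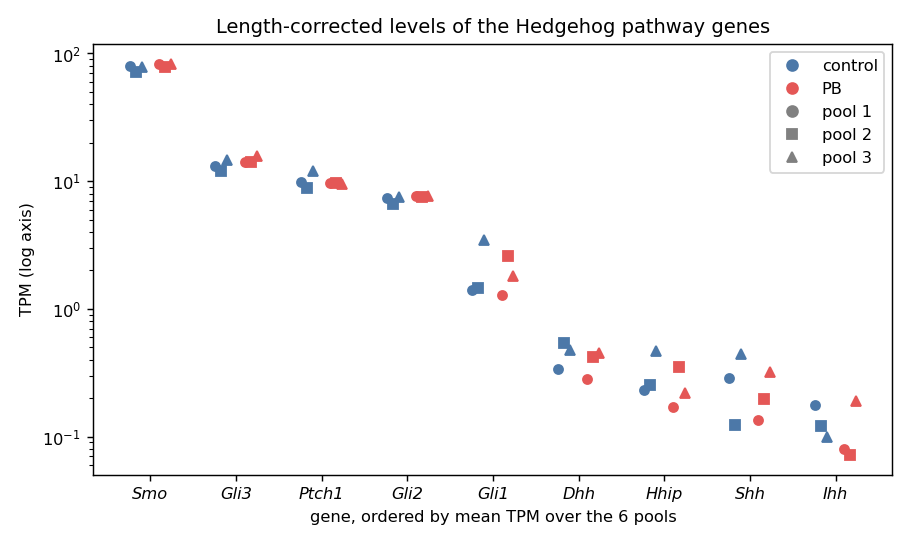
TPM of the 9 genes on a log axis, 1 point per pool, with control in blue, PB in red and the pool number as the symbol. Smo lies between 71.6 and 83.4 TPM in every pool and the 3 ligands and Hhip lie below 1 TPM in every pool, with overlapping ranges from Dhh down to Ihh.

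Among the ligands, all 3 had a lower mean in PB and none was called. Dhh, the ligand known to be made by granulosa cells and by Sertoli cells, had 96, 189 and 121 counts in control 1, 2 and 3 and 74, 119 and 133 counts in PB 1, 2 and 3. This is 0.977, 1.62 and 1.28 CPM in control and 0.746, 1.16 and 1.14 CPM in PB. The groups overlapped, with control 2 highest and PB 1 lowest, and the log2 fold change was -0.35 (SE 0.27, 95% interval -0.999 to 0.31, edgeR FDR = 0.888).

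Ihh, the second granulosa cell ligand, had 29, 23 and 15 counts in control and 12, 12 and 31 counts in PB. A count of 12 has an exact 95% Poisson interval of 6.20 to 21.0 and one of 31 an interval of 21.1 to 44.0, so most of these values could not be separated by counting error alone. PB 1 and PB 2 were lowest and PB 3 had more counts than any other pool, though control 1 was higher after normalization (0.295 CPM against 0.267 CPM). The log2 fold change was -0.36 (SE 0.47, 95% interval -1.49 to 0.78, edgeR FDR = 0.905).

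Shh, the ligand of epithelia and the neural tube, had 51, 28 and 65 counts in control and 22, 36 and 62 counts in PB. Control 3 was highest at 0.690 CPM and PB 1 lowest at 0.222 CPM, with overlapping groups and a log2 fold change of -0.38 (SE 0.49, 95% interval -1.55 to 0.80, edgeR FDR = 0.905). In control 3, 28 of the 65 counts were assigned to XM_006535648.3, a transcript at 0 counts in the other 5 pools. A 2-fold lower level lay inside the intervals of Ihh and Shh and was not excluded. For Shh the Poisson intervals of the lowest count, 22 (13.8 to 33.3), and the highest, 65 (50.2 to 82.8), did not overlap. They take each count as independent, which the reads of a pair are not, so they can be too narrow. Whether its spread was wider than counting error was not settled.

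Ptch1, which encodes the receptor and is itself a target gene, was the member with the smallest p-value. It had 4619, 5144 and 4891 counts in control and 4124, 4597 and 4767 counts in PB, or 47.0, 44.1 and 51.9 CPM against 41.6, 45.0 and 41.0 CPM. PB 1 and PB 3 were below every control pool, and PB 2 was above control 2. Ptch1 averaged 47.7 ± 3.95 CPM (SD, n = 3) in control and 42.5 ± 2.15 CPM (SD, n = 3) in PB, a log2 fold change of -0.17 (SE 0.076, 95% interval -0.35 to 0.016, unadjusted p = 0.068 and FDR = 0.888 with edgeR). The interval does not reach a 2-fold change in either direction. Leaving out PB 2, the pool that crossed into the control range, gave an edgeR FDR of 0.375. This was the lowest that any of the 9 genes reached under any alternative. In that fit 2442 of 19823 genes had an unadjusted edgeR p-value under 0.05, so the lower FDR is not particular to Ptch1. The unadjusted edgeR p-value of Ptch1 was 0.039 without PB 2 and 0.027 without control 2, where the FDR was 0.985.

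Hhip, a membrane-anchored protein that binds Hedgehog ligands and is induced by them, had the largest difference and the widest spread of the 9 genes in CPM. It had 57, 196 and 264 counts in control and 50, 75 and 145 counts in PB, which is 0.580, 1.68 and 2.80 CPM against 0.504, 0.734 and 1.25 CPM. On this scale control 2 and 3 were above all PB pools, and control 1 was near the lowest PB pool. The log2 fold change was -1.02 (SE 0.59, 95% interval -2.44 to 0.40, unadjusted p = 0.131 and FDR = 0.888 with edgeR). It ranged from -0.45 without control 3 to -1.44 without PB 3, and its smallest p-value, unadjusted 0.0176 in edgeR without control 1, came with an FDR of 0.970. In TPM the order of the pools differed, with 0.230, 0.255 and 0.471 in control and 0.170, 0.348 and 0.221 in PB. PB 2 was then above control 1 and control 2, and the means were 0.319 TPM in control and 0.246 TPM in PB.

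Smo, the seven-pass membrane protein that carries the signal into the cell, varied little between the 6 pools. It was measured at 213, 207 and 204 CPM in control and 202, 209 and 206 CPM in PB, from 19206 to 24143 counts per pool. The values of the groups interleaved, and the highest pool exceeded the lowest by a factor of 1.05. The log2 fold change was -0.016 (SE 0.038, 95% interval -0.11 to 0.076, edgeR FDR = 0.946).

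Gli1, which acts only as an activator and is transcribed in response to the signal, had 340, 452 and 780 counts in control and 290, 651 and 479 counts in PB. This is 3.46, 3.88 and 8.28 CPM against 2.92, 6.37 and 4.12 CPM. Control 3 and PB 2 stood apart above the other 4 pools, 1 in each group, and the log2 fold change was -0.22 (SE 0.42, 95% interval -1.21 to 0.78, edgeR FDR = 0.931). Its direction depended on single pools, from -0.56 without PB 2 to 0.28 without control 3. The highest pool exceeded the lowest by a factor of 2.83, and the exact 95% Poisson intervals of these counts (258 to 325 for 290, and 726 to 837 for 780) were far apart, so the spread is wider than counting error.

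Gli2 and Gli3, the activator and the main repressor that transduce the signal, varied little as gene sums. Gli2 was at 33.1, 32.0 and 33.1 CPM in control and 31.7, 33.5 and 32.2 CPM in PB, with a log2 fold change of -0.012 (SE 0.051, 95% interval -0.13 to 0.11, edgeR FDR = 0.975). Gli3 was at 75.3, 71.9 and 78.3 CPM in control and 70.1, 75.8 and 80.4 CPM in PB, with a log2 fold change of 0.0047 (SE 0.066, 95% interval -0.15 to 0.16, edgeR FDR = 0.994). The pools of both groups were interleaved for both genes.

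**Figure D2:**
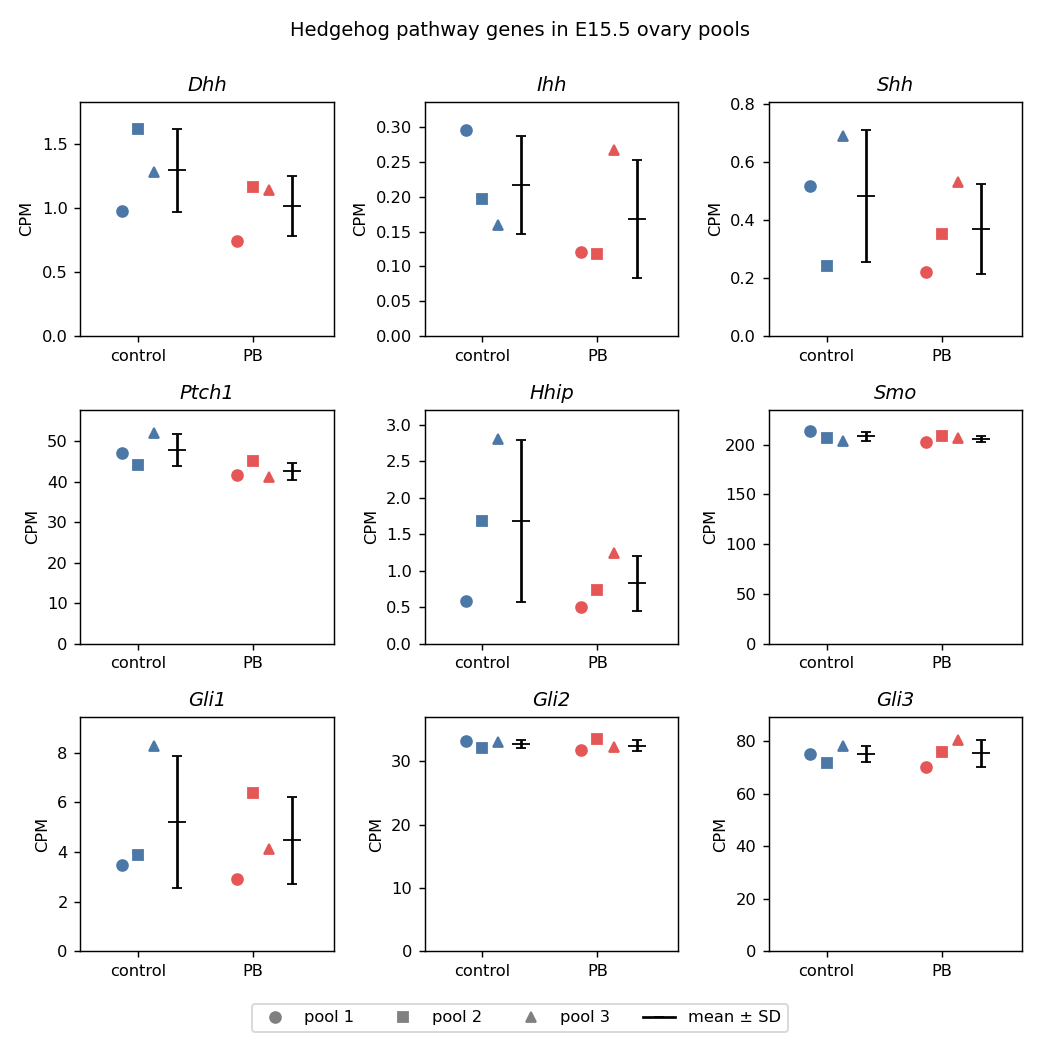
CPM of each gene in the 3 control pools (blue) and the 3 PB pools (red), the pool number as the symbol, with mean ± SD beside each group and every axis starting at 0. The groups overlap in all 9 panels, and the spread between pools is narrow for Smo, Gli2, Gli3 and Ptch1 and wide for Hhip and Gli1.

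Over the 9 genes, 0 were called, 0 had an unadjusted p-value under 0.05 with edgeR, 0 were called or had such a p-value with DESeq2 (background of calls 0.0539%), and the groups overlapped for all 9. Among all tested genes the groups did not overlap for 10.7%. The log2 fold change was negative for 8 of the 9 and positive for Gli3, with a median of -0.22 beside 0.00 over all tested genes, and 9584 of the 19437 tested genes were negative. The negative values of Ihh, Shh, Smo, Gli1 and Gli2 were smaller in size than their SE. The median is the value of Gli1, which was 0.28 without control 3. The 9 genes share the 6 libraries, and PB 1 was the lowest pool for 7 of them (Dhh, Shh, Smo, Gli1, Gli2, Gli3 and Hhip), while control 3 was the highest for 4 (Shh, Ptch1, Gli1 and Hhip). The spread of the genes went with their level. For Smo, Gli2, Gli3 and Ptch1, the most abundant in TPM, the highest pool exceeded the lowest by factors of 1.05 to 1.27 in CPM. For Dhh, Ihh, Gli1, Shh and Hhip the factors were 2.17 to 5.56. The lowest count of any pool was 3113 to 19206 for the former and 12 to 290 for the latter.

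**Figure D3:**
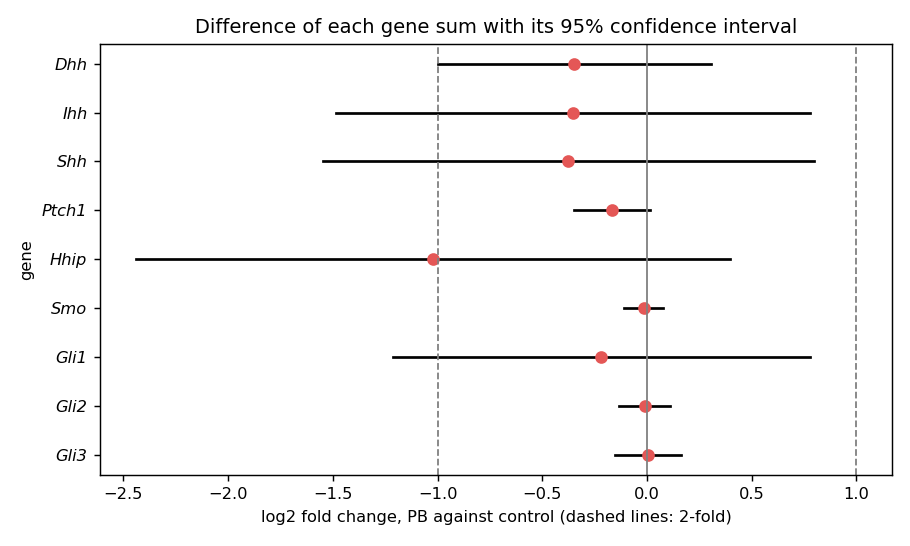
Log2 fold change of PB against control for each gene sum (red point) with its 95% confidence interval from the edgeR fit (black line). All 9 intervals include 0, those of Ptch1, Smo, Gli2 and Gli3 and, narrowly, that of Dhh stay within a 2-fold change in both directions, and that of Hhip runs from -2.44 to 0.40.

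Control 3 was the highest pool for Shh, Ptch1, Gli1 and Hhip. It was also the highest for 4 of the 9 genes of the target list, Foxl1, Foxf1, Ccnd1 and Sfrp1, and for 4 of the 5 mesonephric markers. The other 5 target genes were highest in other pools, among them the forkhead gene Foxf2 at 0.420 CPM in control 2 and 0.212 CPM in control 3. The forkhead gene Foxl1 was at 1.60 CPM in control 3 against 0.262 to 0.499 CPM in the other pools and Foxf1 at 2.24 CPM against 0.686 to 1.38 CPM. The mesonephric marker Cdh16 was at 14.8 CPM in control 3 against 1.90 to 3.88 CPM, and Pax2 at 2.50 CPM against 0.791 to 1.51 CPM. The sum of 4 endoderm epithelium markers (Foxa1, Foxa2, Cdx2 and Vil1) was 5.56 TPM in control 3 and 2.73 to 4.95 TPM in the other pools, and 4 of the 4 had a negative log2 fold change, with 0 called. The part of these cell types in the values of Shh, Ptch1, Gli1 and Hhip was not tested. Markers of the cells in which Ptch1 and Gli1 are usually found, the interstitial cells, summed to 219 to 257 TPM in control and 255 to 258 TPM in PB, with 0 of 5 called. The Sertoli markers summed to 9.27 to 11.6 TPM in control and 11.2 to 12.1 TPM in PB, with 0 of 4 called. The steroidogenic markers summed to 43.3 to 45.6 TPM in control and 23.5 to 47.3 TPM in PB, with 0 of 5 called and 4 of 5 positive, with a median log2 fold change of 0.11. Insl3 was the highest of them at 0.83, with the PB pools above the control pools, and Hsd3b1 the only negative one at -0.41, with 14.8 CPM in PB 1 against 39.0 to 45.6 CPM in the other pools. Schwann cell markers, whose cells are a source of Dhh, summed to 7.95 to 9.69 TPM and 8.68 to 10.1 TPM, and endothelial markers to 114.5 to 141.0 TPM and 126.4 to 127.3 TPM, with 0 of 5 called in each. Over all marker lists, 0 of 48 tested genes were called by edgeR or DESeq2, and 3 had an unadjusted p-value under 0.05 with each tool. Among all genes, 868 of 19437 had such a p-value with edgeR, and 969 did with DESeq2, which tested 20394.

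The transcripts of the 9 genes differed between pools far more than the gene sums did. StringTie, the assembler used by the authors, splits what it counts at a locus over the transcripts it finds there. The spread between pools was wide, with a biological coefficient of variation of 98.4% over transcripts and 21.0% over gene sums. Of the 28 transcripts, 27 had counts and 16 passed the filter. With edgeR 0 of the 16 were called, the groups overlapped for all 16, and 0 reached an unadjusted p-value under 0.05. Over all 51227 transcripts tested, 0.0332% were called, 3.56% had such a p-value and the groups did not overlap for 9.95%. With DESeq2, 2 of 23 were called and 3 had an unadjusted p-value under 0.05. Over all transcripts, DESeq2 tested 63278 and called 1.85%, and 5206 had such a p-value. In 5 transcripts of Gli3, Ptch1 and Hhip, 1 or more pools were at 0 counts while another had over 100.

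Gli3, on chromosome 13 from 15463060 to 15730026 of mm10, was the clearest case. NM_008130.2, the transcript with the most counts, had 3830, 3450 and 2437 counts in control and 2047, 1437 and 3195 in PB. The assembled transcript MSTRG.4526.1 had 3568, 3387 and 2658 counts in control and 91, 1463 and 3620 in PB, and MSTRG.4526.2 had 0 in every control pool and 3786, 4131 and 0 in PB. MSTRG.4526.2 was thus counted in PB 1 and PB 2 alone, where it held 54.4% and 53.3% of the counts of the gene, and PB 3 was at 0 like the control pools.

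MSTRG.4526.2 was called by DESeq2 (FDR = 0.0249) and did not pass the filter of edgeR, and its fold change is not given because PB 3 and all control pools were at 0. All exonic bases of MSTRG.4526.2 are also in MSTRG.4526.1, which has 405 bases more, 30 at the 5′ end, 279 at the 3′ end and 96 between positions 15729048 and 15729143 that MSTRG.4526.2 treats as an intron. This stretch lies in the 3′ UTR of the GENCODE transcript Gli3-201 (15726779 to 15730026), behind the coding sequence that runs from 15478041 to 15726778. It begins with TG and ends with CC on the strand of the gene, where most introns begin with GT and end with AG. The 2 assembled transcripts added up to 3568, 3387 and 2658 counts in control and 3877, 5594 and 3620 in PB.

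The 4 long transcripts of Gli3 use 2 first exons, both upstream of the coding sequence. The distal one, used by both assembled transcripts, took up 48.2%, 40.4% and 36.0% of the Gli3 counts of control 1, 2 and 3, compared with 55.7%, 72.2% and 38.7% in PB 1, 2 and 3. The proximal one, which follows the Gli3 sequence shown above, is used by NM_008130.2 and XM_006516552.3 and held nearly all the rest. PB 1 and PB 2 had the largest distal shares and PB 3 lay within the control range, so the groups overlapped. NM_008130.2 alone had a log2 fold change of -0.60 (SE 0.30, unadjusted p = 0.104 with edgeR), between -0.86 and -0.38 when single pools were left out. With known transcripts only, which leaves both assembled transcripts out of the sum, the log2 fold change of Gli3 turned from 0.0047 to -0.38 with no call.

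Ptch1, on chromosome 13 from 63508328 to 63573616 on the minus strand, has 6 transcripts, 4 of which are long and differ mainly in their first exons. XM_006517162.3, which starts at 63563131 and held the most counts, had 1727, 3015 and 1217 counts in control and 2443, 2437 and 2019 in PB (log2 fold change 0.23, SE 0.31, unadjusted p = 0.491 with edgeR). XM_006517160.3, which starts furthest upstream at 63573616, had 1154, 0 and 899 counts in control and 0, 2 and 0 in PB, with a DESeq2 FDR of 0.0642. It was high in control 1 and control 3 and at the floor of 3 counts or under it in the other 4 pools.

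XM_011244497.2, a shorter transcript that starts inside the gene at 63537594, held 25.3% of the counts in control 3 (1235 counts) and at most 4 counts in any other pool. The first exon downstream of the Ptch1 sequence shown above, used by XM_006517159.3 and NM_008957.2, had the narrowest range of the 5 first exons. Its share of Ptch1 was 18.0%, 15.4% and 17.1% in control 1, 2 and 3, compared with 15.8%, 18.3% and 25.7% in PB 1, 2 and 3.

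Gli2, on chromosome 1 from 118834061 to 119053619 on the minus strand, showed the same within a smaller share. NM_001081125.1 took up 79.1%, 83.8% and 99.5% of the Gli2 counts of control 1, 2 and 3, compared with 87.7%, 79.2% and 96.1% in PB. XM_011247924.2 had 240, 601 and 2 counts in control and 4, 5 and 2 in PB, was called by DESeq2 (log2 fold change -6.17, FDR = 0.00894) and did not pass the filter of edgeR. Control 3, with 2 counts, was as low as the PB pools. XM_006529141.3, which differs from it in the first exon only, had 439, 5 and 13 counts in control and 381, 707 and 145 in PB (log2 fold change 1.37, SE 1.77, edgeR). Control 3 had few counts of either.

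**Figure D4:**
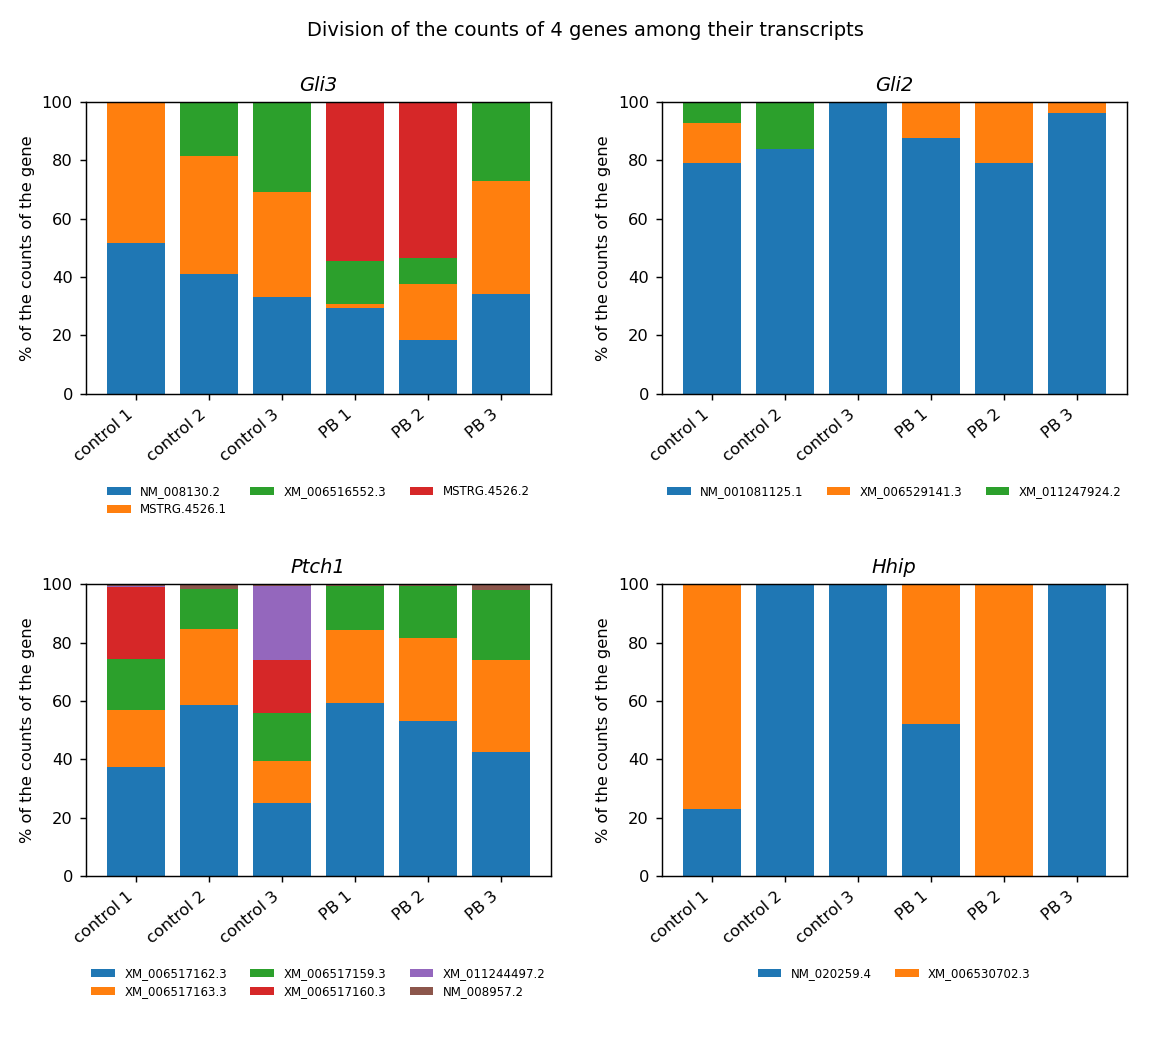
Share of the counts of Gli3, Gli2, Ptch1 and Hhip assigned to each of their transcripts with over 10 counts in all, as stacked bars from 0 to 100% for each of the 6 pools. MSTRG.4526.2 of Gli3 appears in PB 1 and PB 2 and not in PB 3, and Hhip moves between its 2 transcripts from pool to pool in both groups.

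Hhip, on chromosome 8 from 79965850 to 80058069 on the minus strand, was assigned to either of 2 transcripts. NM_020259.4 (9078 bases) had 13, 196 and 264 counts in control and 26, 0 and 145 in PB, and XM_006530702.3 (3171 bases) had 44, 0 and 0 in control and 24, 75 and 0 in PB. Each transcript was at 0 in at least 1 pool and held all counts of the gene in another. The TPM of Hhip depend on this division because the transcripts differ in length.

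In each of the remaining genes, 1 transcript held most of the counts over all pools. NM_176996.4 of Smo (chromosome 6, 29735497 to 29761366) held all but 1 to 3 counts of a pool, NM_007857.5 of Dhh (chromosome 15, 98881617 to 98898574) held 96.9% of the counts of its gene, and Gli1 (chromosome 10, 127329882 to 127341579) has the single transcript NM_010296.2. The main transcripts of Ihh (chromosome 1, 74945315 to 74951672) and Shh (chromosome 5, 28456840 to 28467101) were NM_010544.3 and NM_009170.3, with log2 fold changes of -0.41 (SE 0.48) and -0.050 (SE 0.51) in edgeR. The Shh transcript alone was nearly level, with a wide SE, because 28 counts of control 3 were assigned to XM_006535648.3 instead. Of the bases of XM_006535648.3, 97.8% are also in NM_009170.3, and whether this division of the counts is real was not tested. The loci of Shh, Gli1, Gli2, Gli3 and Hhip overlap another annotated gene, Arhgap9 in the case of Gli1, and the counting of overlapping reads by strand is not given in the sources used here.

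The other genes of the pathway gave the context of these values, from 6 lists by role with 58 genes, of which 57 were tested and Gpc5 was too low. In these lists 0 of 57 genes were called, by edgeR or by DESeq2, and 2 had an unadjusted p-value under 0.05 with edgeR and 3 with DESeq2. Among all genes, 868 of 19437 had such a p-value with edgeR, and 969 did with DESeq2, which tested 20394. The log2 fold change in the lists was positive for 34 genes and negative for 23, with a median of 0.02. The PB pools all lay above the control pools for 8 genes and below them for 2, where the shares over all tested genes are 5.1% and 5.62%.

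In the list for ligand release, Scube1, which encodes a secreted protein of the SCUBE family that helps to free the ligand, had the lowest log2 fold change at -0.23 (SE 0.10) and Disp2, a relative of the ligand exporter Disp1, the highest at 0.30 (SE 0.15). Disp2 was at 1.37 to 1.75 CPM in control and 1.97 to 2.01 CPM in PB, with no overlap and an edgeR FDR of 0.888. Among the co-receptors, the endocytic receptor Lrp2 had the highest log2 fold change at 0.35 (SE 0.20). The co-receptors Cdon, Boc and Gas1 and the glypican Gpc3 stayed between -0.076 and 0.049, and Boc was the gene of this list whose PB pools all lay below the control pools.

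Among the genes that pass the signal on from SMO, the arrestin Arrb1 was lowest at -0.24 (SE 0.25) and the ciliary receptor Gpr161, which holds the pathway off, highest at 0.076 (SE 0.074). Iqce, which encodes a protein of the ciliary EVC zone that anchors the EVC-EVC2 complex, had the smallest p-value of the 58 genes. It was at 22.8, 23.3 and 21.9 CPM in control and 19.9, 19.2 and 19.8 CPM in PB. All 3 PB pools lay below the controls, by a log2 fold change of -0.21 (SE 0.055, 95% interval -0.34 to -0.074, unadjusted p = 0.00825 and FDR = 0.888 with edgeR).

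Of the 18 genes that process or restrain the GLI proteins, 13 had a positive log2 fold change, with a median of 0.061. The range was narrow, from -0.086 (SE 0.12) for the kinase gene Ulk3 to 0.17 (SE 0.12) for Cul3, the ubiquitin ligase scaffold that works with SPOP. The PB pools lay above the control pools for 5 of the 18, Sufu, Stk36, Prkacb, Prkar1a and Tulp3, beside 5.1% of all tested genes. Their log2 fold changes were 0.074 to 0.11 with an edgeR FDR of 0.888 each, and these genes share the same libraries. Sufu, which binds and restrains the GLI proteins, was at 69.0, 70.6 and 71.5 CPM in control and 72.5, 75.9 and 75.4 CPM in PB.

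Of the 10 genes of transport in the cilium, 8 were positive, with a median of 0.11. Ift140 was lowest at -0.079 (SE 0.077) and Ift88 highest at 0.23 (SE 0.13). Wdr35, a subunit of the retrograde transport complex, was at 34.9, 34.9 and 36.2 CPM in control and 40.8, 37.0 and 41.2 CPM in PB, with a log2 fold change of 0.17 (SE 0.060, unadjusted p = 0.0287 and FDR = 0.888 with edgeR). Ift88 was at 35.6 and 35.0 CPM in PB 1 and PB 3 and at 25.7 CPM in PB 2. The germ cell markers summed to 606 and 642 TPM in PB 1 and PB 3 and to 325 TPM in PB 2. In control the order differed, as control 2 had the lowest germ cell sum (357 TPM) and the highest Ift88 (28.1 CPM against 25.9 and 27.9 CPM). The part of germ cells in the level of Ift88 was not tested.

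Among the other genes known to respond to the pathway, the extremes each rested on 1 pool. Foxl1 had a log2 fold change of -0.94 (SE 0.63), which was 0.046 without control 3. Ccnd2, a cyclin gene, had one of 0.72 (SE 0.53), which was -0.22 without PB 2, a pool with 580 CPM against 149 to 201 CPM in the others. In this list 4 of 9 genes were positive and 0 had groups that did not overlap.

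**Figure D5:**
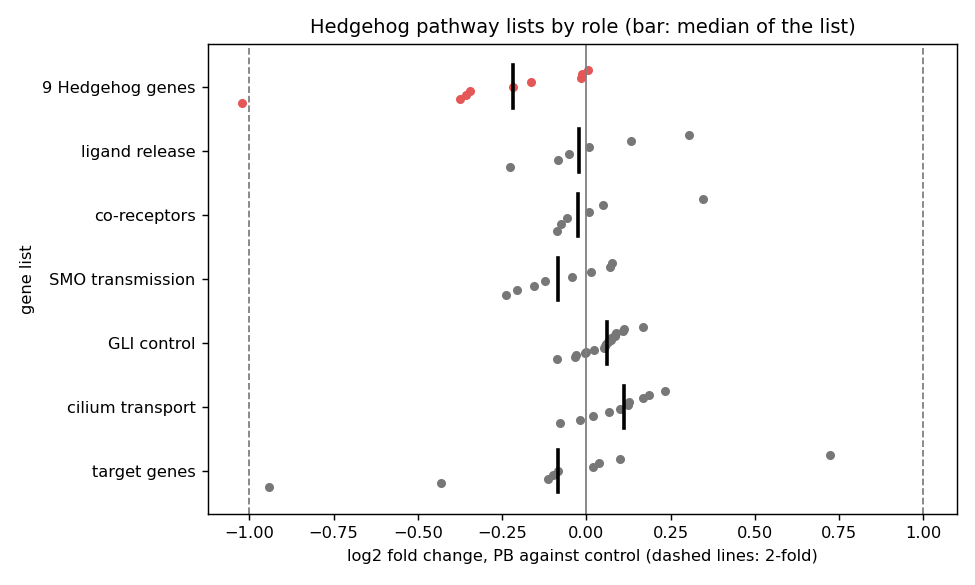
Log2 fold change of PB against control for each tested gene of the 9 Hedgehog genes (red) and the 6 other lists (grey), with the median of each list as a black bar. Apart from Hhip at -1.02, every gene lies within a 2-fold change, and the medians of the lists for GLI control and cilium transport are 0.061 and 0.11.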

How the data were processed

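Polyadenylated RNA from 3 control and 3 PB pools was sequenced by the authors from stranded, paired-end libraries (NEBNext Ultra II Directional). According to the methods of the study and the submitters' processing notes, the reads were aligned to mm10 with HISAT2 2.1.0, transcripts were assembled and merged on RefSeq with StringTie 1.3.5, and prepDE wrote whole-number counts from the coverage of each transcript. The authors deposited these raw counts per transcript without normalization. Their comparison by DESeq2 1.30.0 (fold changes, p-values and adjusted p-values) was used for gene names only, and 6 columns of normalized values per pool were not used. Names of 3 transcripts came from the merged annotation.

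Counts were summed per gene name. The 1490 transcripts without a name held 3.05% to 4.49% of the counts of a pool and entered the transcript tests only. Gene sums and transcripts were each tested over all features with edgeR 4.0.16 in R 4.3.3 (TMM, filterByExpr set to min.count 10 and min.total.count 15, quasi-likelihood F-test, no covariate). Calls required both a 2-fold change or more and an FDR (Benjamini-Hochberg) no higher than 0.05. The SE is the size of the log2 fold change divided by the square root of F, and 95% intervals used the degrees of freedom of the fit. CPM were scaled by TMM, TPM were computed from the counts and exon lengths, and 3 counts were taken as the floor. Intervals of single counts cover counting error only. They take each count as independent, and both reads of a pair can be counted, so they can be too narrow. The tests were also run on simulated counts with changes larger than the 2-fold threshold. That run does not show how often changes near 2-fold or smaller would be found.

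Alternatives were DESeq2's size factors, DESeq2 1.42.0, no filter, a filter of 10 counts in all 3 pools of a group, a block for the replicate number, sums of known transcripts, sums over StringTie loci and each pool left out. All 9 genes are described, with the transcript of each gene that held the most counts, and from each pathway list the genes with the lowest and highest log2 fold change and those with an unadjusted p-value under 0.05, apart from 1 gene that is not reported here. Other genes, and the remaining transcripts of Gli3, Ptch1, Gli2, Hhip and Shh, were chosen after their values were seen. The members, the lists and the tests were chosen with earlier results of these data known.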

Additional observations from a re-analysis of the deposited data

How the results depend on the processing

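The 9 Hedgehog genes, the other pathway genes and the marker genes gave 0 calls under every alternative run, and 0 when any 1 pool was left out. Transcripts of the 9 genes gave 0 calls except with DESeq2, which called 2. Over all genes, 3 calls became 11 with DESeq2 and 8 with known transcripts only, and 3 to 9 when pools were left out. Over all transcripts, 17 calls became 1172 with DESeq2 and 39 with the stricter filter, and 0 to 19 when pools were left out. The causes were not tested. The stricter filter tested 43858 in place of 51227 transcripts, and 2073 in place of 1824 had an unadjusted p-value under 0.05 with edgeR.

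Known transcripts only turned Gli3 to -0.38, since its assembled transcripts were left out, and Ift140 to 0.054. Leaving out 1 pool moved the log2 fold change of Smo from -0.036 to 0.00012, Gli1 from -0.56 to 0.28, Gli3 from -0.044 to 0.049, Ulk3 from -0.14 to 0.014, Foxl1 from -1.27 to 0.046 and Ccnd2 from -0.22 to 1.04. For transcripts it moved NM_009170.3 from -0.42 to 0.22, NM_176996.4 from -0.039 to 0.00072, NM_010296.2 from -0.56 to 0.27 and NM_001081125.1 from -0.077 to 0.093. The other genes and transcripts that the naming rule gives kept their direction in these fits, which were not run for the genes and transcripts chosen later.

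Replicate numbers are shared by the groups. Over gene sums, deviations of same-numbered pools had correlations of 0.093, 0.15 and -0.018, beside -0.17 to 0.096 for pools with different numbers. With 3 pools per group these values cannot settle whether the numbers pair the samples. With the replicate block, 0 of all genes and 0 of all transcripts were called, and 1 of the 9 Hedgehog genes, Hhip, had an unadjusted p-value under 0.05 (0.0254, edgeR FDR = 0.783). The 95% intervals of the low genes Ihh, Shh, Gli1 and Hhip include a 2-fold lower level, so a change of that size was not excluded.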
